A study of Mus musculus with 24 samples.

Results

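The imprinted region on mouse chromosome 7 that runs from Ube3a to Magel2 was followed through 7 of its transcripts, Ube3a, Snhg14, Snrpn, A230057D06Rik, Gm9801, Ndn and Magel2, of the 52636 genes counted in each library. The genes were listed by name and by their position between Ube3a and Magel2 on GRCm38. The region was chosen by a readout of these same data, since A230057D06Rik and Gm9801 were singled out for their low counts in Con females compared with Con males, so every value of these 2 genes that involves a Con group is given as a description without a test. The remaining 5 genes were tested in each comparison other than that between the Con sexes, and all 7 were tested between the MSUS sexes, whose animals the choice did not use. Every test that includes a Con group reuses animals of the choice and is not independent of it.

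RNA-seq was performed on the nucleus accumbens (NAc), a ventral striatal region of the reward circuit, of 24 C57BL/6 mice at P50, with 6 animals in each of 4 groups and 1 library per animal. Con females and Con males were reared without stress. MSUS females and MSUS males had undergone maternal separation with unpredictable maternal stress as pups, for a daily time that differs between the sample labels and the study's methods. No group carried a transgene, a deletion or a drug treatment, and the tissue was bulk, so that a smaller number of cells of a type and less RNA per cell cannot be told apart.

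The region is a textbook case of genomic imprinting, in which a gene is read from the copy inherited from a given parent. Snrpn, Snhg14, Ndn and Magel2 are read from the paternal copy, and loss of that expression in humans causes Prader-Willi syndrome. Ube3a, an E3 ubiquitin ligase, is read from the maternal copy in neurons, where a long antisense extension of the Snrpn-Snhg14 transcript runs across the silent paternal Ube3a, and loss of the maternal copy causes Angelman syndrome. Snrpn encodes the SmN protein of the spliceosome, Snhg14 is the host transcript of the C/D box small nucleolar RNA (snoRNA) repeats, and Ndn and Magel2 encode members of the MAGE protein family. A230057D06Rik and Gm9801 are long noncoding RNAs between Snrpn and Ndn, the former of which spans part of the miR-344 cluster.

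On GRCm38, Ube3a (ENSMUSG00000025326.12) lies at chr7:59228750-59311536 on the plus strand. Snhg14 (ENSMUSG00000100826.6, chr7:59307924-59975759) and Snrpn (ENSMUSG00000102252.5, chr7:59982495-60140219) follow on the minus strand, with 65 and 12 blocks of merged exons. A230057D06Rik (ENSMUSG00000109394.1, chr7:61704519-61928690) and Gm9801 (ENSMUSG00000045813.7, chr7:62094506-62209479) are also on the minus strand, with 15 and 23 exon blocks. Ndn (ENSMUSG00000033585.5, chr7:62346569-62350262) and Magel2 (ENSMUSG00000056972.6, chr7:62377010-62381640) are genes of 1 exon on the plus strand. The end of Snhg14 overlaps the end of Ube3a on the opposite strand, and 208 snoRNA models lie on the strand of Snhg14 within its span.

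The promoter windows of the region are shown with a sequence feature that was found in those of Snrpn and Ndn and not in that of A230057D06Rik. The windows, credited to RefSeq on GRCm38.p6, cover 250 bases before and 50 bases after an annotated start, and 6 of the 7 genes had at least 1. Those of A230057D06Rik, Ndn and Snhg14 do not cover the starts of the counted models, at 61928690, 62346569 and 59975759. The capitals mark the 8 letters CGCATGCG, a palindrome that resembles the core motif of the factor NRF1. It was chosen after the windows were read, so which windows hold it is a description and no test.

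Snrpn, start at the end of its annotated span, chr7:60140176-60140475, minus strand: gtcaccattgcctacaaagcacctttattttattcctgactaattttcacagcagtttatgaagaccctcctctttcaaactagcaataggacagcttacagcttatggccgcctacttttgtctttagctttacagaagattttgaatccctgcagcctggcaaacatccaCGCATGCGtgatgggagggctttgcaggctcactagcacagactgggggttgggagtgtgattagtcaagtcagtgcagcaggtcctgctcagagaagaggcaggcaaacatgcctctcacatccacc

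Snrpn, start shared with Snurf, chr7:60005150-60005449, minus strand: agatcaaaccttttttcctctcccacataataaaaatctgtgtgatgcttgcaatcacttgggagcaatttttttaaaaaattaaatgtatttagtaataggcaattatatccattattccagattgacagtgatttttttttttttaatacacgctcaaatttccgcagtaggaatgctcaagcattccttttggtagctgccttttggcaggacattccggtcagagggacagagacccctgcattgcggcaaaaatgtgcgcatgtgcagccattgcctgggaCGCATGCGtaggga

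Ndn, chr7:62348027-62348326, plus strand: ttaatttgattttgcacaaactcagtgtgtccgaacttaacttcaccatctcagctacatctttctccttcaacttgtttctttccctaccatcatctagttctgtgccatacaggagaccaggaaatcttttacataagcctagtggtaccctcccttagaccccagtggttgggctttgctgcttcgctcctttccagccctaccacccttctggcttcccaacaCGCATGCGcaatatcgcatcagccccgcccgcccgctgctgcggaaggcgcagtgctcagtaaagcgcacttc

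A230057D06Rik, chr7:61927525-61927824, minus strand: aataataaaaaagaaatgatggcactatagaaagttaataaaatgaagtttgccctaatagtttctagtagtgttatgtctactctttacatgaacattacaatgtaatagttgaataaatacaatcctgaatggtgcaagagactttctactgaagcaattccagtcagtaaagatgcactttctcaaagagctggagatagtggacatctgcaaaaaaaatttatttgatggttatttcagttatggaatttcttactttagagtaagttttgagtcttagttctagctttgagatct

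The motif was found in each of the 4 windows of Snrpn, of which 1 (chr7:60450128-60450427) is also the window of Snhg14, and in that of Ndn. It was not found, on either strand, in the windows of Ube3a, Magel2 and A230057D06Rik. Among the 32817 distinct windows of this length in the table, 611 (1.86%) held it. The 3 upstream windows of Snrpn were near copies of each other, with identities of 84.1% to 88.4% over the aligned bases, so they do not count as separate occurrences. The window of A230057D06Rik had 0 CG dinucleotides and that of Ube3a had 29, beside a median of 7 over all distinct windows. The window of Ndn had 11 and that of Magel2 had 10. These are matches of letters and say nothing of binding.

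Within A230057D06Rik, on its strand, RefSeq places 7 miR-344 hairpins. Their 3p miRNAs are shown as the sequences this transcript spans, 5′ to 3′, with the seed (bases 2 to 8) in capitals. The 6 distinct 3p miRNAs had 4 seeds.

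mmu-miR-344d-3p: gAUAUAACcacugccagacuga

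mmu-miR-344e-3p: gAUAUAACcaaagccugacuau

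mmu-miR-344h-3p: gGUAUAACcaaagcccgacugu

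mmu-miR-344b-3p: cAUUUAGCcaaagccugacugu

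mmu-miR-344c-3p: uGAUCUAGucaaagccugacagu

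mmu-miR-344-3p: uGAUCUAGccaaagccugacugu

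The d and e forms shared the seed AUAUAAC, and the c form and miR-344 shared GAUCUAG. Mature miRNAs were not measured by these libraries. The gene models of the hairpins counted only longer fragments, with a highest mean of 21.7 normalized counts among the 11 miRNA models within A230057D06Rik.

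The libraries held between 39923666 and 70575745 pairs counted on the sense strand, and members were counted at between 169 and 17643 pairs each. The share of uniquely mapped pairs that fell in no gene ran from 30.0% to 33.8% in Con females and from 35.3% to 42.9% in MSUS females, without overlap. It ran from 33.7% to 39.7% in Con males and from 31.2% to 43.7% in MSUS males, where replicate 6 was lowest and replicate 1 highest. All 10 markers of striatal projection neurons were counted. The summed level of 9 markers of cortical excitatory neurons ran from 6973 to 92479 normalized counts, and was highest in MSUS male replicate 6, Con female replicate 3 and Con male replicate 5.

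Levels were first compared between genes per length, in CPM (counts scaled to the library total) per kb of merged exons over all 24 libraries. Snrpn was highest at 59.8 ± 9.90 (SD, n = 24). Ndn followed at 21.3 ± 2.59 and was below Snrpn and above the next gene in 24 of 24 libraries. Snhg14 at 10.3 ± 1.18, Ube3a at 10.2 ± 1.24 and Gm9801 at 9.30 ± 1.34 overlapped in range. Within libraries, Snhg14 was above Ube3a in 14 of 24 and Ube3a above Gm9801 in 17 of 24. Snhg14 and Gm9801 were not compared library by library. Magel2 at 1.67 ± 0.714 and A230057D06Rik at 1.65 ± 0.305 were lowest, with overlapping ranges. Per kb of the whole gene span the order changed, since Ndn and Magel2 have no introns: Ndn was then highest at 21.3 and Ube3a had 2.54, Snrpn 0.818, Snhg14 0.402, Gm9801 0.244 and A230057D06Rik 0.0834 CPM per kb.

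**Figure D1:**
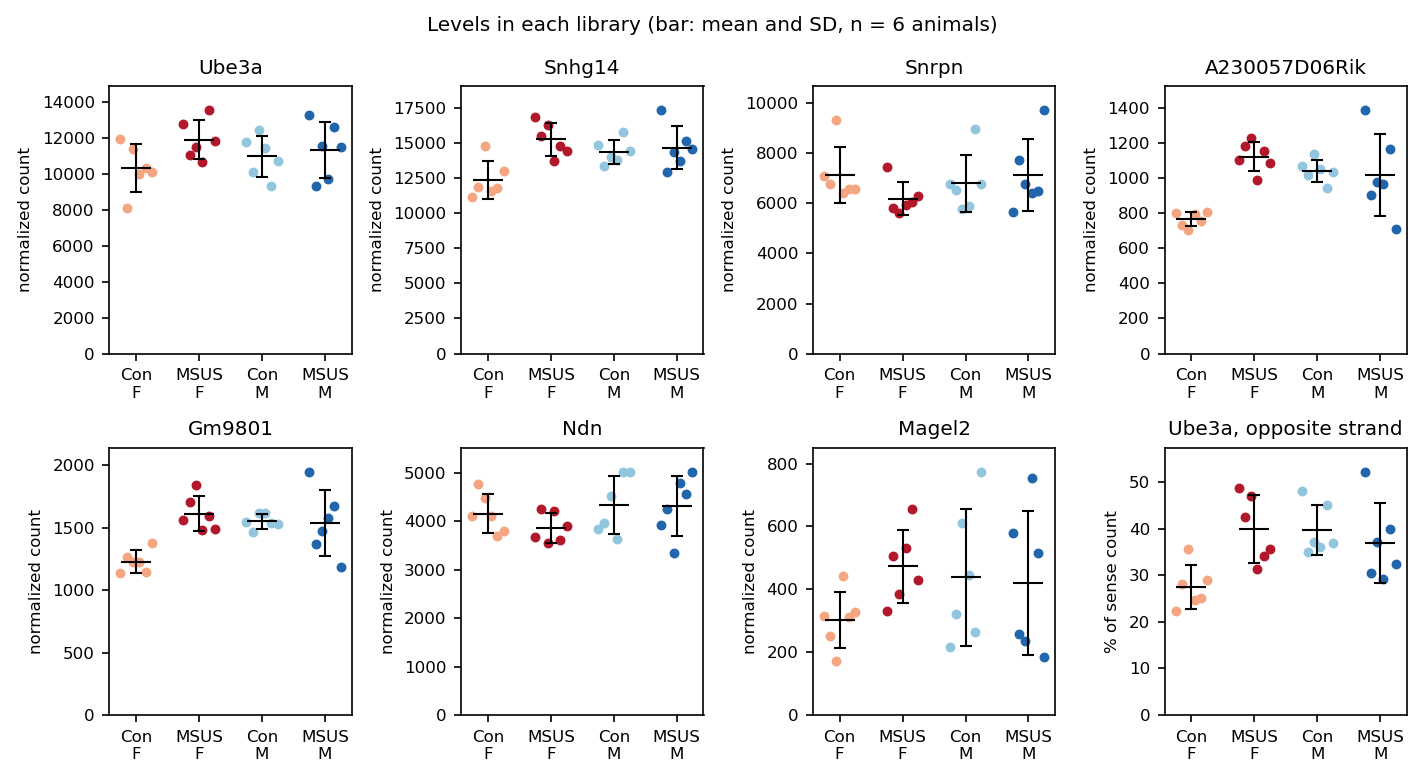
Normalized sense counts of the 7 transcripts, and the opposite-strand count of Ube3a as a percent of its sense count, in each library (points) of Con and MSUS females (F) and males (M), with the mean and SD of 6 animals as bars. A230057D06Rik in Con females lay between 702 and 808, below every MSUS female (989 to 1226), and MSUS males spread from 709 to 1386.

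Among the noncoding RNAs that the region was chosen for, A230057D06Rik had 800, 735, 702, 794, 758 and 808 normalized counts in Con females 1 to 6, in order of replicate. The MSUS females had 1101, 1180, 1226, 989, 1154 and 1084. In Con males it had 1068, 1020, 1136, 1050, 944 and 1033. In MSUS males it had 1386, 902, 979, 964, 1168 and 709. Con females lay below the lowest animals of the MSUS females and of the Con males, whereas the MSUS males covered nearly the whole range, from MSUS male 6 at the level of Con females to MSUS male 1 above every other animal. Con females averaged 766 ± 42.1 and MSUS females 1122 ± 83.4 (SD, n = 6), while the male averages were 1042 ± 62.9 without and 1018 ± 233 with MSUS.

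For Gm9801, Con females averaged 1228 ± 88.6 and MSUS females 1610 ± 138 (SD, n = 6), while the male averages were 1550 ± 58.1 without and 1537 ± 263 with MSUS. Con females ran from 1134 to 1378 with a median of 1225, and MSUS females from 1477 to 1837 with a median of 1577, so that these groups did not overlap. Con males ran from 1465 to 1616 with a median of 1538. MSUS males ran from 1183 in replicate 6 to 1946 in replicate 1 with a median of 1523. The same 2 MSUS males were thus lowest and highest for both transcripts, and over the 24 libraries the log2 CPM of A230057D06Rik and Gm9801 had a Pearson r of 0.94.

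Between Con females and Con males, the contrast by which these genes were selected, the log2 difference was -0.44 (SE 0.052) for A230057D06Rik and -0.33 (SE 0.047) for Gm9801. In the same fit, Snhg14 had -0.21 (SE 0.067), Magel2 -0.52 (SE 0.31), Ube3a -0.083 (SE 0.091), Ndn -0.053 (SE 0.089) and Snrpn 0.075 (SE 0.12). The ranges of the Con sexes did not overlap for 2 of the 7, A230057D06Rik and Gm9801, where 2.01% of all genes did not overlap. Because the contrast chose them, nothing is read from that count. Between MSUS females and Con females, A230057D06Rik had a log2 difference of 0.55 (SE 0.056) and Gm9801 of 0.39 (SE 0.063), and between MSUS males and Con males they had -0.036 (SE 0.13) and -0.015 (SE 0.094). The ranges of Con and MSUS females did not overlap for these 2 of the 7, where 7.21% of all genes did not overlap. These are again descriptions, since the same Con animals enter them.

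The comparison between the MSUS sexes asked whether the sexes of stressed animals differed in the region, in animals that the choice of genes had not used. No member passed the threshold of an adjusted p of 0.10 in edgeR's quasi-likelihood test, beside 0.135% of the 20714 genes tested. None of the 7 had an unadjusted p under 0.05, and DESeq2 called 0 of 7. A230057D06Rik was 1122 ± 83.4 in MSUS females and 1018 ± 233 in MSUS males, a log2 difference of 0.14 (SE 0.13, edgeR adjusted p = 0.73). Gm9801 had 0.066 (SE 0.10, edgeR adjusted p = 0.83). Snrpn and Ndn had negative differences of -0.21 (SE 0.12) and -0.16 (SE 0.087), each with an edgeR adjusted p of 0.67. No member's ranges were free of overlap between the MSUS sexes, where 0.637% of all genes did not overlap.

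The comparison of MSUS with Con females addressed the effect of early-life stress on the region in females. Of the 5 members tested, Snhg14 and Magel2 were higher in MSUS females. Ube3a was higher by a smaller margin that did not pass the test, and Snrpn and Ndn had lower means that did not pass it. Thus 2 of 5 tested members were called, both higher, beside 25.1% of the 20571 genes tested that were called in either direction and 13.1% that were called higher. These tests reuse the Con females whose low counts of A230057D06Rik and Gm9801 chose the region, so they are not independent of that choice. Over the 24 libraries, Snhg14 had a Pearson r of 0.68 and 0.77 with those 2 genes, and Magel2 had 0.61 and 0.56.

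Snhg14, the snoRNA host transcript, had 11165, 11850, 14814, 11602, 11798 and 13012 normalized counts in Con females 1 to 6, in order of replicate. The MSUS females had 16840, 15486, 16258, 13718, 14790 and 14452. The ranges overlapped only through Con female 3, and the MSUS females were above the Con median of 11824 in 6 of 6 animals. The means were 12373 ± 1343 and 15257 ± 1166 (SD, n = 6), a log2 fold change of 0.31 (SE 0.071, edgeR adjusted p = 0.015). Without Con female 3, the change was 0.36 (edgeR adjusted p = 0.0035). Within library numbers 1 to 12 it was 0.35 (edgeR adjusted p = 0.22) and within 13 to 24 it was 0.26 (edgeR adjusted p = 0.21), with 3 animals per group in each. The share of pairs in no gene as a covariate gave 0.036 (edgeR adjusted p = 0.95), and offsets for GC content and length turned the change to -0.27 (edgeR adjusted p = 0.029).

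Magel2, which encodes a MAGE protein that works with ubiquitin ligases in protein recycling, had 314, 252, 171, 441, 310 and 328 normalized counts in Con females, in order of replicate. The MSUS females had 331, 506, 386, 532, 655 and 430. The groups overlapped, and 6 of 6 MSUS females exceeded the median of the Con group, 312. The means were 303 ± 89.5 and 473 ± 116 (SD, n = 6), a log2 fold change of 0.65 (SE 0.21, edgeR adjusted p = 0.054). The call was lost without Con female 2 (log2 fold change 0.60, edgeR adjusted p = 0.106), without MSUS female 5 (0.53, edgeR adjusted p = 0.112) and at a threshold of 0.05. With the cortical marker score as a covariate the change was 0.25 (edgeR adjusted p = 0.45). The mean sum of the 9 cortical markers was 42396 ± 28687 for Con and 16312 ± 12784 for MSUS females (SD, n = 6). Of the 9, 2 were called lower, beside 11.9% of all genes. The means of this sum thus differed between the groups, and the part of these cells in the Magel2 result was not tested.

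Ube3a had 11954, 8093, 11366, 10007, 10326 and 10097 normalized counts in the Con group of females and 12769, 11035, 11490, 10655, 13539 and 11843 in the MSUS group. The groups overlapped. The means were 10307 ± 1332 and 11888 ± 1087 (SD, n = 6), a log2 difference of 0.21 (SE 0.086, edgeR adjusted p = 0.11). DESeq2 gave 0.21 with an adjusted p of 0.098.

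Snrpn, the spliceosomal protein gene, had 7112, 6783, 9350, 6420, 6578 and 6573 normalized counts in the Con group of females and 7449, 5832, 5600, 5937, 6061 and 6287 in the MSUS group. In each group a single animal stood above the other 5, Con female 3 and MSUS female 1. The difference was -0.20 (SE 0.095, edgeR adjusted p = 0.16). Without MSUS female 1 it was -0.26 and passed the test (edgeR adjusted p = 0.062), as it did with offsets for GC content and length (-0.27, edgeR adjusted p = 0.084). Without Con female 3 it was -0.11 (edgeR adjusted p = 0.25), and with the cortical marker score as a covariate -0.025 (edgeR adjusted p = 0.92). Ndn ran from 3686 to 4765 in Con females and from 3549 to 4257 in MSUS females, with a difference of -0.10 (SE 0.068, edgeR adjusted p = 0.32).

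**Figure D2:**
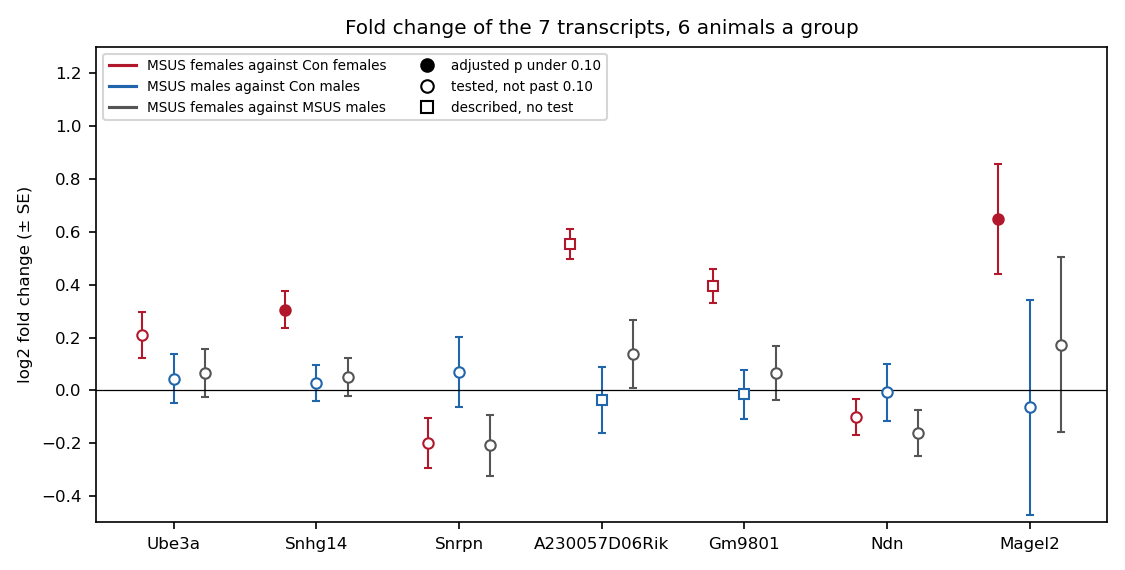
Log2 fold changes (points) with their SE (bars) of the 7 transcripts in MSUS against Con females (red), MSUS against Con males (blue) and MSUS females against MSUS males (grey), from edgeR with 6 animals per group. Filled circles passed an adjusted p of 0.10, which in these comparisons were Snhg14 (0.31) and Magel2 (0.65) in females; squares are values given without a test.

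In males, no member was called between MSUS and Con, nor was any of the 20691 genes tested (0.0%). Among all genes, 191 had an unadjusted p under 0.05, and DESeq2 called 0. Con males averaged 14377 ± 875 normalized counts of Snhg14 and MSUS males 14684 ± 1506 (SD, n = 6), which gave a log2 difference of 0.029 (SE 0.069). Magel2 had 438 ± 217 and 421 ± 228, a difference of -0.065 (SE 0.41). Ube3a had 0.045 (SE 0.094), Snrpn 0.069 (SE 0.13) and Ndn -0.0075 (SE 0.11), each with an edgeR adjusted p of 1.00, as for Snhg14 and Magel2, and none of the 5 had an unadjusted p under 0.05. The Magel2 interval was the widest, since single males ran from 186 (MSUS male 6) to 774 (Con male 6). No member's ranges were free of overlap in males, where 0.0387% of all genes did not overlap.

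Whether the change in females differed from that in males was tested by the interaction of group and sex over the 24 animals. Of the 5 members, 0 were called, beside 0.0% of the 21500 genes tested, and DESeq2 called 0 of 5. For Snhg14 the interaction was 0.27 on the log2 scale (SE 0.10, edgeR adjusted p = 0.21), which was the only member with an unadjusted p under 0.05. For Magel2 it was 0.71 (SE 0.48, edgeR adjusted p = 0.40), for Snrpn -0.27 (SE 0.17, edgeR adjusted p = 0.37), for Ube3a 0.16 (SE 0.13, edgeR adjusted p = 0.50) and for Ndn -0.098 (SE 0.13, edgeR adjusted p = 0.69). Over all genes, 4031 had an unadjusted p under 0.05 and DESeq2 called 390. Without MSUS male 1, the Snhg14 interaction was 0.33 (edgeR adjusted p = 0.042) and 3031 of all genes were called. With each of the 24 animals left out in turn the Snhg14 interaction stayed between 0.24 and 0.33, so the call and not the size depended on MSUS male 1.

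Since the libraries kept strand, pairs that overlap Ube3a exons on the opposite strand could be counted apart from Ube3a itself. Over all libraries these amounted to 36.1% of the sense count of Ube3a. The median was 0.434% and the 95th percentile 2.94% among 4352 abundant genes (mean of at least 1000 normalized counts) that have no annotated gene on the other strand, and Snrpn had 0.217%. For Snhg14, whose end overlaps Ube3a, the opposite-strand count was 17.2% of the sense count. The annotation places 5 genes on the strand opposite to Ube3a within its span, among them the end of Snhg14, and some of the same pairs are counted for those genes.

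The opposite-strand count of Ube3a was 2620, 2375, 4018, 2607, 2384 and 3285 pairs in Con females 1 to 6 and 6509, 4881, 4939, 3325, 4178 and 3997 in MSUS females. Only Con female 3 exceeded the lowest MSUS females. In CPM, the antisense level was 53.6 ± 12.2 for Con and 89.7 ± 18.9 for MSUS females (SD, n = 6), a difference of 0.74 in mean log2 level (exact two-sided permutation p = 0.0043, adjusted p = 0.019 over 9 tests). As a share of the sense count, it was 27.5% ± 4.71 for Con and 39.8% ± 7.25 for MSUS females, a difference of 0.53 in mean log2 ratio (exact permutation p = 0.0087, adjusted p = 0.026). In both measures, 6 of 6 MSUS females exceeded the median of the Con group. Both tests reuse the Con females whose low counts chose the region, so they are not independent of that choice.

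In males, the opposite-strand share was 39.7% ± 5.40 in Con and 36.8% ± 8.54 in MSUS animals (SD, n = 6), a difference of -0.13 in mean log2 ratio (exact permutation p = 0.41, adjusted p = 0.61). MSUS females and MSUS males differed by 0.12 (exact permutation p = 0.47, adjusted p = 0.61). Between the Con sexes the log2 ratio differed by -0.54, given without a test. The antisense level differed by -0.085 between MSUS and Con males (exact permutation p = 0.71, adjusted p = 0.80) and by 0.19 between the MSUS sexes (exact permutation p = 0.44, adjusted p = 0.61).

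Snhg14 lies downstream of Snrpn on the same strand, and the ratio of their counts within each library does not depend on its depth. Whether this ratio follows distal against proximal transcription was not tested. Snhg14 counts were 1.57 to 1.98 times the Snrpn counts in Con females and 2.26 to 2.903 times in MSUS females, without overlap. The difference in mean log2 ratio was 0.50 (exact permutation p = 0.0022, the smallest that 6 against 6 animals can give, adjusted p = 0.019). This test reuses the Con females whose low counts chose the region, so it is not independent of that choice. Over the 24 libraries, A230057D06Rik had a Pearson r of 0.68 with Snhg14 and -0.63 with Snrpn. The ratio itself was not corrected for RNA composition or for the mix of cells, and the sum of cortical markers averaged 42396 in Con and 16312 in MSUS females. In the fits of the separate genes, offsets for GC content and length gave -0.27 for both Snhg14 and Snrpn, and the share of pairs in no gene as a covariate gave 0.036 and -0.17. The cortical marker score as a covariate gave 0.39 for Snhg14 and -0.025 for Snrpn. The part of cortical cells in the ratio was not tested. For Con males the ratio was 2.15 ± 0.235 and for MSUS males 2.14 ± 0.553 (SD, n = 6), where MSUS male 6 was lowest at 1.50 and MSUS male 1 highest at 3.07. The male difference was -0.037 (exact permutation p = 0.80, adjusted p = 0.80), and that between the MSUS sexes was 0.25 (exact permutation p = 0.16, adjusted p = 0.36). Without MSUS male 1, the MSUS sexes differed by 0.36 (exact permutation, adjusted p = 0.039).

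The rest of the region was described from the annotation. Of 261 other genes annotated within the window, 58 passed the filter on low counts in females. Of these, 28 were called higher and 0 lower, with a median log2 difference of 0.50 beside -0.0027 over all genes, of which 13.1% were called higher and 11.9% lower. The values ran from -0.17 to 1.37, and 56 of the 58 were above 0. A gene passed the filter when as many libraries as a single group holds reached the minimum count. Models near the floor could thus enter through MSUS females alone, which can tilt these counts upward, and 33 of the 58 were low-count snoRNA models. All but 2 of those tested lay on the minus strand. The comparison reuses the Con females whose low counts chose the region, so these calls are not independent of that choice. Some models also lie within a member, as Mir344c, called higher, does within A230057D06Rik, and are not separate results. In males 0 of 58 were called, with a median of 0.038, and between the MSUS sexes 0 of 61, with a median of 0.12.

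Those with the highest mean counts were 9330162G02Rik, Gm38393 and B230209E15Rik. 9330162G02Rik (chr7:59223847-59254788), which lies on the strand opposite to Ube3a, averaged 2475 ± 605 normalized counts for Con and 3528 ± 677 for MSUS females (SD, n = 6), which gave a log2 fold change of 0.52 (SE 0.16, edgeR adjusted p = 0.049). Gm38393 (chr7:59974149-60005064), whose span overlaps that of Snrpn on the same strand so that its counts are uncertain, had 0.39 (SE 0.14, edgeR adjusted p = 0.078). B230209E15Rik (chr7:61529871-61615327), between Snrpn and A230057D06Rik, had 0.13 (SE 0.052, edgeR adjusted p = 0.11). The smallest p among those called belonged to Gm44644 (chr7:60915550-60922910), with 163 ± 15.5 normalized counts in Con and 271 ± 29.3 in MSUS females and a log2 fold change of 0.74 (SE 0.091, edgeR adjusted p = 0.0012), and to A330076H08Rik (chr7:61930137-61982358), which adjoins A230057D06Rik, with 695 ± 75.4 and 1115 ± 121 and 0.68 (SE 0.086, edgeR adjusted p = 0.0013). Neither gene's female groups overlapped.

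**Figure D3:**
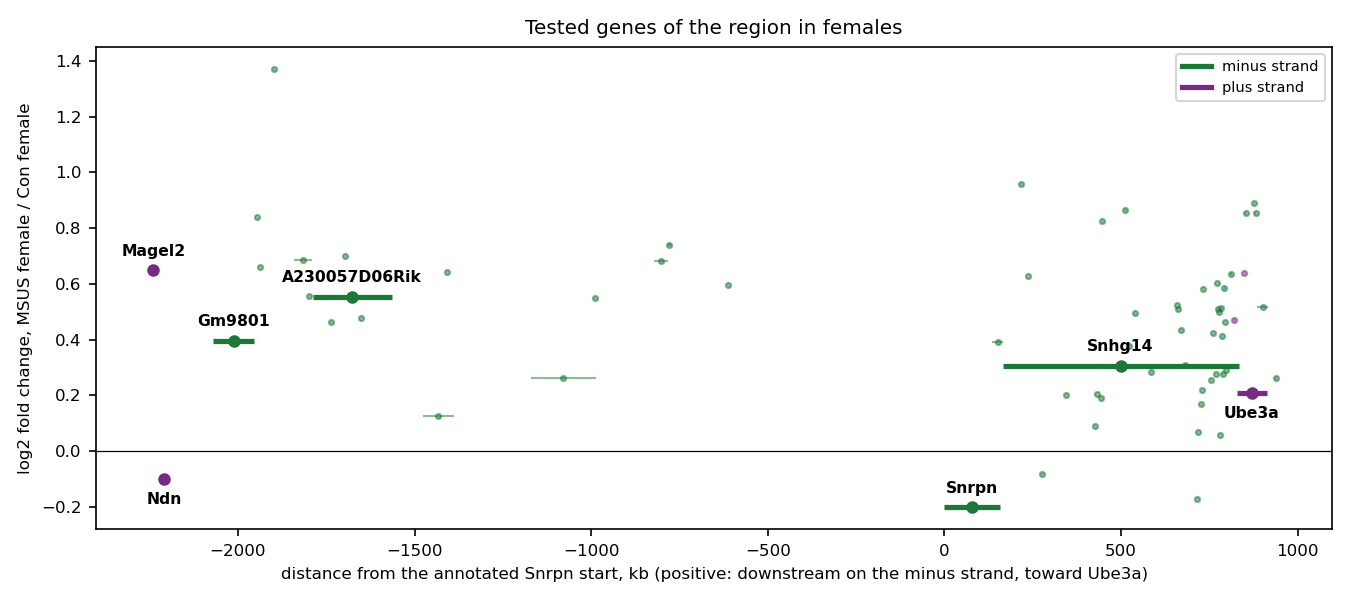
Log2 fold change between MSUS and Con females (y axis) of each tested gene of the region against its distance from the annotated Snrpn start in kb (x axis, positive toward Ube3a), with lines spanning each gene and members in bold on the minus (green) and plus (purple) strand. Snrpn (-0.20) and Ndn (-0.10) lay below 0, and 56 of the 58 other tested genes lay above it. Low-count models among the 58 could have passed the filter through MSUS females alone.

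The 208 snoRNA models within Snhg14 are near-identical repeats, and pairs with more than 1 mapping place were not counted, so their counts are uncertain. Of these models, 57 had no count in any library and 33 were tested in females. Of the 33, 7 were called higher and 0 lower, beside 13.1% and 11.9% of all genes, with a median log2 difference of 0.38. They share a host transcript and the limit of the filter given above, so they do not count as separate results. Summed over all 208, they averaged 994 ± 136 normalized counts for Con and 1291 ± 118 for MSUS females (SD, n = 6), while the male averages were 1209 ± 86.7 without and 1217 ± 175 with MSUS. The model with the highest mean, Gm24966, had a log2 difference of 0.29 in females (SE 0.12, edgeR adjusted p = 0.11). Gm22373, with 17.8 ± 7.75 normalized counts in Con and 34.3 ± 10.9 in MSUS females, had 0.96 (SE 0.29, edgeR adjusted p = 0.041).

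Genes that neighbour the imprinted domain moved little in females. Of 13 listed, 11 were tested, 0 were called higher and 1 lower, beside 13.1% and 11.9% of all genes, with a median log2 difference of -0.022. The gene called was Herc2, an E3 ligase that binds Ube3a, at -0.11 (SE 0.043, edgeR adjusted p = 0.098). Snurf, whose exons lie within Snrpn, is listed at 0 in every library.

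Among 41 other imprinted genes, 39 were tested, of which 15 were called higher and 1 lower in females, beside 13.1% and 11.9% of all genes, with a median log2 difference of 0.19. Meg3, an imprinted noncoding RNA of chromosome 12, averaged 161417 ± 15506 normalized counts for Con and 222477 ± 17699 for MSUS females (SD, n = 6). This gave a log2 fold change of 0.47 (SE 0.071, edgeR adjusted p = 0.0030). The groups did not overlap, where 7.21% of all genes did not. Rian, a snoRNA host of the same cluster, had 0.31 (SE 0.052, edgeR adjusted p = 0.0037). Ppp1r9a, named like Meg3 for its high mean, had 0.067 (SE 0.088, edgeR adjusted p = 0.63). In males 0 of the 39 were called, with a median of 0.025.

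The partners of the region's proteins were counted likewise in females. Of the 7 genes for Sm proteins, with which SmN shares the spliceosomal ring, 0 were called higher and 3 lower, where 11.9% of all genes were lower, with a median log2 difference of -0.067. Snrpb, which encodes the SmB proteins that SmN resembles, had -0.17 (SE 0.044, edgeR adjusted p = 0.0235) and Snrpd3 -0.079 (SE 0.030, edgeR adjusted p = 0.092). Of 14 MAGE partners and relatives of Ndn and Magel2, 0 were called, 7 were above 0, and the median was 0.0026, with Maged1 at -0.0033 (SE 0.043, edgeR adjusted p = 0.97) and Usp7, a deubiquitinase, at 0.014 (SE 0.029, edgeR adjusted p = 0.77). Of 12 Ube3a partners, substrates and related ligases, 0 were called higher and 4 lower, beside 13.1% and 11.9% of all genes, with a median of -0.048. Herc2, given above among the neighbours of the domain, is also 1 of these 4. Ube2d3, a ubiquitin-conjugating enzyme, had 0.23 (SE 0.094, edgeR adjusted p = 0.11). Ube3b, a related ligase, had -0.23 (SE 0.051, edgeR adjusted p = 0.012). In males, edgeR and the same threshold called 0 genes of each of these lists.

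Markers of other cells were also counted in females, where 11.9% of all genes were called lower. Of 6 genes expressed in all neurons 3 were called lower (median log2 difference -0.32), of 6 mature oligodendrocyte markers 5 were called lower (median -0.26), and of 6 astrocyte markers 2 were called lower (median -0.068). None of the 10 markers of striatal projection neurons, the 5 of microglia and the 4 of endothelial cells was called, with medians of 0.086, -0.052 and -0.10. Their part in the member results was not tested, and only the cortical score above entered the fits as a covariate.

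The members also moved with the share of pairs in no gene, a measure of RNA outside annotated exons that itself differed between Con and MSUS females. Over the 24 libraries, the log2 CPM of A230057D06Rik had a Pearson r of 0.92 with that share and a Spearman rho of 0.94, given without a test since the Con animals that chose the gene are among them. Without the 2 libraries farthest from the median share, r was 0.90. Within library numbers 1 to 12 and 13 to 24 it was 0.93 and 0.89, and with group means removed it was 0.84. Within groups of 6 animals it was 0.87 in MSUS females, 0.84 in Con males, 0.95 in MSUS males and -0.090 in Con females.

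For Gm9801, r was 0.93 (rho 0.91, again without a test), and 0.90 without the 2 farthest libraries. The 12 relations of the other genes and of the Ube3a antisense level were tested. They were taken over all 24 libraries, so differences between the groups enter their p-values, and the Con females that chose the region are among them. No p-value was computed for r with group means removed. For Snhg14 r was 0.77 (rho 0.69, permutation p = 1e-05, the smallest that 100000 resamples can give, and 0.00036, adjusted p = 4.0e-05 and 0.0011 over 12 relations) and 0.68 without them. The antisense level of Ube3a had an r of 0.85 (rho 0.87, permutation p = 1e-05 for each, adjusted p = 4.0e-05), and 0.81 without them. Snrpn ran the other way, with r = -0.58 (rho -0.61, permutation p = 0.0027 and 0.0017, adjusted p = 0.0054 and 0.0041), and -0.49 without them.

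Ube3a had r = 0.55 (rho 0.57, permutation p = 0.0056 and 0.0044, adjusted p = 0.0084 and 0.0076), and 0.49 without the 2 farthest libraries. Magel2 had r = 0.41 (rho 0.44, permutation p = 0.045 and 0.033, adjusted p = 0.054 and 0.044), and 0.39 without them. Ndn had r = -0.34 (rho -0.34, permutation p = 0.10 for each, adjusted p = 0.10), and -0.25 without them. With group means removed, r was 0.88 for Gm9801, 0.56 for Snhg14, 0.73 for the Ube3a antisense level, -0.56 for Snrpn, 0.41 for Ube3a, 0.21 for Magel2 and -0.38 for Ndn. Single groups of 6 animals differed in sign. For Ube3a r was -0.53 for Con and -0.034 for MSUS females, against 0.93 for Con and 0.76 for MSUS males. For Snhg14 it was -0.33 in Con males and 0.48 to 0.85 in the other groups, for Magel2 -0.21 and -0.49 in Con and MSUS females, and for Snrpn 0.042 in Con females and -0.83 to -0.18 in the other groups. Within library numbers 1 to 12 and 13 to 24, r was 0.94 and 0.88 for Gm9801, 0.79 and 0.65 for Snhg14, 0.92 and 0.78 for the antisense level, -0.61 and -0.65 for Snrpn, 0.54 and 0.49 for Ube3a, 0.47 and 0.49 for Magel2 and -0.26 and -0.36 for Ndn. Over all 21500 genes, r had a median of -0.0020, with 5th and 95th percentiles of -0.72 and 0.76, and 13.01% of genes had an r beyond 0.7 in either direction.

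When that share entered the female fit as a covariate, 0 of the 5 tested members and 0 of all genes were called, while 1173 genes had an unadjusted p under 0.05. Magel2 then had a log2 difference of 1.09 (edgeR adjusted p = 0.76). Because the share did not overlap between Con and MSUS females, its part and that of stress cannot be told apart in this comparison.

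**Figure D4:**
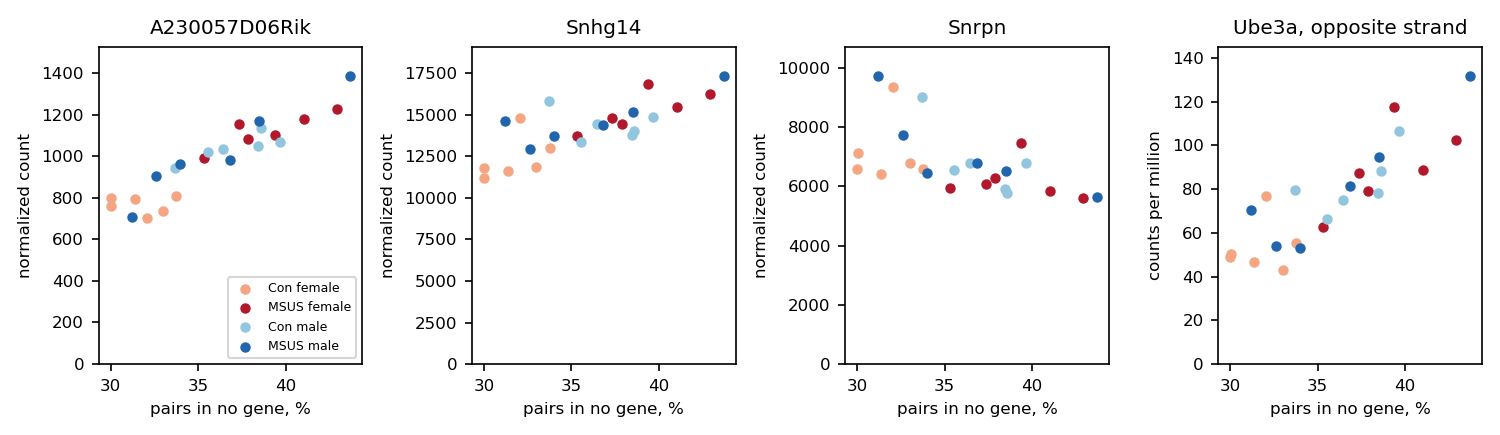
Normalized counts of A230057D06Rik, Snhg14 and Snrpn, and the opposite-strand level of Ube3a in CPM (y axes), against the percent of uniquely mapped pairs in no gene (x axes) in 24 libraries coloured by group. A230057D06Rik rose with the share (r = 0.92) and Snrpn fell with it (r = -0.58).

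The genes most like A230057D06Rik, by the Pearson r of log2 CPM over the 24 libraries and leaving out the members, were Gm37928 (r = 0.96) and Gm26871 (0.95), 2 neighbouring noncoding models of chromosome 3, the unnamed model ENSMUSG00000109554.1 (0.94), Mdm4, a regulator of p53 (0.94), and Gm45159 (0.94). Each of these 5 had an r of 0.90 to 0.95 with the share of pairs in no gene. Those most like Snrpn were Rnf14 (0.97), Napb (0.97), Cntn1 (0.97), Rtn3 (0.97) and Map2k4 (0.97), with an r of -0.64 to -0.51 with the same share. Snrpn and Snhg14, neighbours on the same strand, had an r of 0.0024 with each other, and Snrpn had -0.63 with A230057D06Rik, -0.71 with Magel2 and 0.47 with Ndn. These values describe the 24 libraries, which share their groups and library sets.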

How the data were processed

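Total RNA-seq libraries from the NAc of 24 mice, 6 in each of 4 groups taken from the sample labels, were analysed. The authors deposited raw counts of uniquely mapped read pairs per gene for each library, in 3 columns that differ in strand. The libraries were depleted of ribosomal RNA and stranded, without poly(A) selection, so unspliced RNA was kept. Reads were aligned with STAR 2.6.1b to mm10 with GENCODE M15. Pairs with several mapping places, and pairs that overlap exons of more than 1 gene, are not in the gene counts. The pairs in no gene, 30.0% to 43.7% of uniquely mapped pairs, were kept out of totals and tests.

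Sense-strand counts were tested with edgeR 4.0.16 in R 4.3.3 (robust quasi-likelihood F test, TMM scaling, filterByExpr with a minimum count of 10), each pair of groups on its own, and p-values were adjusted by Benjamini-Hochberg over all genes tested, with a threshold of 0.10 as in the study. The interaction was fitted on all 24 animals. Normalized counts are counts divided by DESeq2 1.42.0 size factors. The opposite-strand level and the ratios were compared by exact two-sided permutation tests of mean log2 values after adding 0.5 to counts, adjusted over 9 tests. Levels between genes used merged exons of GENCODE M21, to which 52489 of the 52636 identifiers matched. The fits were tested on simulated data.

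The members and gene lists were chosen with earlier results of these data known. Named were the 7 members, the 3 other genes of the window with the highest mean count, and from each list the 2 with the highest mean and up to 2 with the smallest p among those called, of which some are not reported here. The labels do not say whether animals shared litters, so p-values measure the spread between these animals. Estrous stages were not used, because the labels give them to males as well as females. Alternatives covered the tool, scaling, filter, strand, replicate block, library numbers, covariates, GC content and length, the samples in the fit, the threshold and leaving out each animal. The spliced share used as a covariate comes from the study's table of alignment statistics.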

Additional observations from a re-analysis of the deposited data

Results flagged for a closer look

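In all, 3 libraries stood apart from their groups in the normalized count of Snrpn, each as the highest of 6 animals with a gap to the next that exceeded Dixon's limit. They were Con female 3 with 9350, MSUS female 1 with 7449 and Con male 5 with 8995. Of 36 groups examined 3 were marked in this way, and chance marks about 1 in 20. The summed level of the cortical markers was 91074 normalized counts in Con female 3, 40863 in MSUS female 1 and 63483 in Con male 5, the highest of each group. With the cortical marker score as a covariate, the Snrpn difference was -0.025 between MSUS and Con females (edgeR adjusted p = 0.92) and -0.057 between the MSUS sexes (edgeR adjusted p = 0.99). Without Con female 3 the Snrpn difference between MSUS and Con females was -0.11 (edgeR adjusted p = 0.25), and without MSUS female 1 it was -0.26 (edgeR adjusted p = 0.062).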

How the results depend on the processing

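Of the 5 members tested between MSUS and Con females, 2 were called. The count was 1 with no filter on low counts, with the cortical score as a covariate, in the fit of all 24 animals and at a threshold of 0.05. It was 3 with DESeq2, at least 10 counts in every library, unstranded counts and the library set as a covariate, each with Ube3a added (adjusted p of 0.098, 0.0997, 0.050 and 0.042), and 3 with GC and length offsets, where Snhg14 and Snrpn were lower. It was 0 within library numbers 1 to 12 or 13 to 24 and with the share of pairs in no gene or the spliced share as a covariate. Leaving out 1 animal gave 1 to 3, with Magel2 lost without Con female 2 or MSUS female 5. For the interaction, leaving out 1 animal gave 0 to 1 member, the 1 being Snhg14 without MSUS male 1. The replicate numbers did not pair the samples (same-number r of -0.24 to 0.25 in females, with 3 of 6 pairs over 0.1). With a replicate block, 3 members were called in females, Ube3a included (0.22, edgeR adjusted p = 0.072), and 3800 of all genes in place of 5156. Counts of all genes called in females were 3102 to 5737 with 1 animal left out and 0 to 6823 over the other alternatives.

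Some log2 differences changed sign. In females, offsets for GC content and length gave Snhg14 -0.27 and Ube3a -0.063, the same offsets with the replicate block gave -0.27 and -0.061, and the spliced share gave Snhg14 -0.052 and Ndn 0.055. Between the MSUS sexes, library numbers 1 to 12 gave A230057D06Rik -0.021, Gm9801 -0.028 and Snrpn 0.012. The share of pairs in no gene gave A230057D06Rik -0.0072, Gm9801 -0.059 and Snhg14 -0.027. The spliced share gave -0.026, -0.070 and -0.041 for the same genes and -0.022 for Ube3a. The cortical score gave Gm9801 -0.0030 and Magel2 -0.12, the GC and length offsets gave Snhg14 -0.099, and with the block -0.079. In males, library numbers 1 to 12 gave Snrpn -0.19 and Magel2 0.29, numbers 13 to 24 gave Snhg14 -0.0081, Ube3a -0.074 and Ndn 0.16, and the cortical score gave Magel2 0.053. Leaving out 1 male gave ranges of -0.31 to 0.18 for Magel2, -0.055 to 0.056 for Ndn, -0.022 to 0.063 for Snhg14, -0.040 to 0.16 for Snrpn, -0.0029 to 0.095 for Ube3a, -0.24 to 0.021 for the Ube3a antisense level and -0.15 to 0.057 for the Snhg14 to Snrpn ratio. In the interaction, the share of pairs in no gene gave Snrpn 0.084, Ube3a -0.032 and Ndn 0.078, the spliced share gave 0.045, -0.13 and 0.098, the cortical score gave Snrpn 0.0015 and Magel2 -0.028, the GC and length offsets gave Snhg14 -0.34 and Ube3a -0.11, and with the block -0.33 and -0.11. The cause of these changes was not tested.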
